A study of Rattus norvegicus with 372 samples.

Results

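The genes of the cytosolic ribosome were followed by TempO-Seq whole transcriptome (WT) assay in primary rat hepatocytes treated with 14 chemicals. Members were the probes whose gene symbol is that of a large subunit protein (Rpl and a number, or Rplp0, Rplp1 and Rplp2) or of a small subunit protein (Rps and a number, or Rpsa), with a mean count of at least 10 over the wells. Of 51 probes with such a symbol, 46 passed this minimum, and they stand for 44 gene symbols out of 22253 WT probes in the table and 10689 that passed the same minimum. Of the members, 27 were large and 19 were small subunit probes. The 5 probes below the minimum were 1 of Rpl26, 2 of Rps16, and those of Rpl17 and Rpl37a. Another 4 probes, whose symbols are of the same form but stand for like paralogs (Rpl10l, Rpl39l, Rpl3l and Rps27l), were left out by name, and symbols of another form, such as Rpl22l1, Rpl7l1 and Rpl36al, were not in the family.

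All cultures were hepatocytes of male Wistar rats, kept between layers of collagen (sandwich culture) and exposed for 24 h. The treatments were acetaminophen (400 and 10000 µM), caffeine (400 and 10000 µM), chloramphenicol (18 and 450 µM), diclofenac (16 and 400 µM), doxorubicin (0.08 and 2 µM), indomethacin (12 and 300 µM), isoniazid (400 and 10000 µM), ketoconazole (0.6 and 15 µM), naproxen (80 and 2000 µM), ranitidine (160 and 4000 µM), simvastatin (2.4 and 60 µM), sulfasalazine (4 and 100 µM), valproic acid (400 and 10000 µM) and WY14643 (8 and 200 µM), with 0.5% DMSO as vehicle and culture medium alone as a further control. Batch 1 and batch 2 each used the cells of 1 rat, so the 3 wells of a treatment in a batch are technical replicates, and p-values measure the spread between wells of 2 animals rather than between animals. Batch 1 had 3 vehicle and 3 medium wells, which were all on the plate that also carried caffeine, diclofenac, doxorubicin, isoniazid, naproxen, ranitidine, simvastatin and valproic acid. The other 6 chemicals of batch 1 were on a plate with no vehicle wells, so plate and treatment cannot be told apart for them in that batch, whereas the 6 vehicle and 6 medium wells of batch 2 were shared evenly between its plates. Every treatment of a batch was compared with the same vehicle wells, so the comparisons are not independent of each other.

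A ribosome is built from a small subunit, which holds the messenger RNA and reads its codons, and a large subunit, which joins the amino acids and carries a lateral stalk that recruits translation factors. Because each ribosome takes a single copy of nearly every protein, cells make these proteins in matched amounts, and their messenger RNAs are among the most abundant in a hepatocyte. Many of them are terminal oligopyrimidine (TOP) messenger RNAs, which begin with a C followed by a run of C and T (U in the RNA) and are held back from translation when the mTORC1 kinase is inactive. Several ribosomal proteins also act outside the ribosome, such as Rpl5 and Rpl11, which can bind Mdm2 and so stabilize p53.

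Promoter sequences of RefSeq (rat assembly GRCr8) were found for 36 of the 44 symbols, in 37 entries, and not, among others, for Rpl7, Rpl15, Rpl27, Rpl30, Rpl32 and Rps29. Those of 7 genes are shown because their genes carry the results below. Each runs from 40 bases before the annotated start to 20 bases from it on, 5′ to 3′ on the gene's strand. In capitals is the longest run of C and T that holds a base within 5 bases of the start. After Rpl30, Rps2 and Rpl28 followed the family most closely over the treated wells. Rpl31 had the largest rise of any member, Rpl12 rose more than the median member with ranitidine and caffeine, and Rps18, Rps3a and 1 probe of Rps15a followed it least.
Rps2 (chr10:14251808-14251867, plus strand): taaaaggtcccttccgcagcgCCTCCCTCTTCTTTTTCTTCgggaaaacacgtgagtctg
Rpl28 (chr1:78083513-78083572, minus strand): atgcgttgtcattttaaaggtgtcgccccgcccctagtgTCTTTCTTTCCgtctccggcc
Rpl31 (chr9:49143071-49143130, plus strand): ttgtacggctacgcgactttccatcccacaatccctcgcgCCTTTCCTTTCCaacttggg
Rpl12 (chr3:36661900-36661959, plus strand): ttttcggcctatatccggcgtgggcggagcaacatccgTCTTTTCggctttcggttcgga
Rps18 (chr20:4933705-4933764, plus strand): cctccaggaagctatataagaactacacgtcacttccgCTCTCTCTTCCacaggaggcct
Rps3a (chr2:173827023-173827082, minus strand): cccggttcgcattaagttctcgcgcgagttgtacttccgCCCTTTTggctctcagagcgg
Rps15a (chr1:181860265-181860324, minus strand): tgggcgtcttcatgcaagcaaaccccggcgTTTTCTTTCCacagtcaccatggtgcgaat
These windows differ in length of the run. Its presence was fixed by the marking, since every member entry has such a run, from 2 to 20 bases long. It therefore says nothing on how closely a gene followed the family. A run of at least 6 C or T that overlapped or lay within 5 bases of the start was found in 26 of the 37 entries (70.3%), against 19.8% of 33465 rat promoter entries of the same length. Runs of at least 8 were found in 21 entries (56.8%), against 9.06% of all entries, and the median run was 9 bases in the members and 3 in all entries. The start base itself was C in 20 entries (54.1%) against 24.1%. Of other short motifs in the 300 bases, CCGGAA on either strand was found in 17 (45.9%) against 15.0%, CACGTG, which reads the same on both strands, in 4 (10.8%) against 6.42%, and CCAAT on either strand in 9 (24.3%) against 37.5%. TATAAA between 40 and 16 bases before the start was found in 2 entries (5.41%) against 1.35%. A match is a description of letters in these windows and not of a bound factor.

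The WT libraries of batch 1 held 2709504 to 8948654 reads (median 6210462) and those of batch 2 held 2289425 to 8975207 (median 7220136). Leaving out both libraries with fewer than 3000000 reads gave 325 in place of 328 member calls in the higher direction at the high concentrations. The culture was checked against 10 hepatocyte probes, whose summed reads were 37940 to 45150 per 1000000 reads in vehicle wells (median 42590), against 65.5 to 140 for 8 Kupffer cell and leukocyte probes, 1.67 to 3.81 for 5 endothelial probes, 34.6 to 167 for 7 stellate cell and fibroblast probes and 37.7 to 50.6 for 6 cholangiocyte probes. Of the cholangiocyte probes, 2 were at 0 in every vehicle well, and none of the others was. With 12 of the 14 high concentrations every well had a hepatocyte sum below every vehicle well, the others being simvastatin and sulfasalazine. By probe, 5 of the 10 were called higher and 2 lower with 200 µM WY14643, 3 higher and 3 lower with indomethacin and 4 higher and 5 lower with caffeine. The 12 included treatments in which most members were higher, such as diclofenac (7076 to 9587), ranitidine (12100 to 17890) and acetaminophen (23340 to 36430), and others in which they were not, such as valproic acid (16000 to 22740), chloramphenicol (23240 to 31960) and doxorubicin (26280 to 32130). The Kupffer cell and leukocyte sum lay below every vehicle well with caffeine (9.57 to 25.9), doxorubicin (9.83 to 28.9), indomethacin (23.2 to 54.4) and valproic acid (36.9 to 64.6), was 37.9 to 72.7 with acetaminophen, and was 67.2 to 243 with isoniazid. By probe, 5 of the 6 tested were also called lower with acetaminophen, ketoconazole, diclofenac, ranitidine (1 higher in each) and naproxen. Their median log2 fold changes were -1.33, -1.14, -1.70, -2.06 and -1.05, where 25.8 to 40.1% of all probes were lower. The cholangiocyte sum lay below every vehicle well with diclofenac (6.81 to 10.5), naproxen (9.74 to 20.1), indomethacin (17.7 to 24.7), chloramphenicol (23.0 to 32.6) and WY14643 (25.0 to 36.9). For the endothelial sum this held with doxorubicin (0 to 0.482), ranitidine (0.178 to 1.23), valproic acid (0.267 to 0.790), ketoconazole (0.480 to 1.62) and indomethacin (0.598 to 1.48), and for the stellate cell and fibroblast sum with doxorubicin alone (3.22 to 18.2). All these ranges join both batches, and the stellate cell and fibroblast sum had a wide range in vehicle wells (34.6 to 167). A fall within a batch may therefore not show in it. The part of these sums in the results on ribosomal protein genes was not tested, and in bulk wells fewer cells of a type and less RNA per cell cannot be told apart.

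Member probes together took 4.36 to 4.45% of all WT reads in the 3 vehicle wells of batch 1 and 4.78 to 5.24% (median 4.98%) in the 6 of batch 2. With 10000 µM acetaminophen the share was 6.58, 6.96 and 7.06% in batch 1 and 7.63, 8.22 and 8.22% in batch 2. These wells lay above the vehicle wells of their batch without overlap, and the mean share was 1.56 times that of vehicle in batch 1 and 1.60 times in batch 2. Ketoconazole at 15 µM gave 6.73, 6.74 and 6.84% in batch 1 and 7.54, 7.58 and 7.71% in batch 2, or 1.54 and 1.52 times vehicle. The ratio was 1.59 and 1.38 with 400 µM diclofenac, 1.38 and 1.46 with 4000 µM ranitidine, 1.30 and 1.37 with 300 µM indomethacin, 1.32 and 1.34 with 2000 µM naproxen, and 1.29 and 1.29 with 10000 µM isoniazid (batch 1 and batch 2 in that order), each again without overlap with vehicle. Smaller ratios without overlap in either batch included 1.13 and 1.19 with 450 µM chloramphenicol, 1.05 and 1.11 with 18 µM chloramphenicol, and 1.05 and 1.11 in medium alone. The share was below vehicle in both batches with 8 µM WY14643, where the wells held 3.71, 3.80 and 3.84% in batch 1 and 4.06, 4.28 and 4.36% in batch 2. The same was seen for 400 µM valproic acid, at 0.85 and 0.89 times vehicle, and for 2 µM doxorubicin, at 0.96 and 0.93 times vehicle. This share is a share of total reads, and the scale matters for 10000 µM valproic acid. There the share was 1.07 and 1.15 times vehicle, also without overlap in either batch. The median log2 fold change of the members was 0.13 under total count scaling and -0.14 after TMM normalization, which scales libraries by the bulk of their probes.

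**Figure D1:**
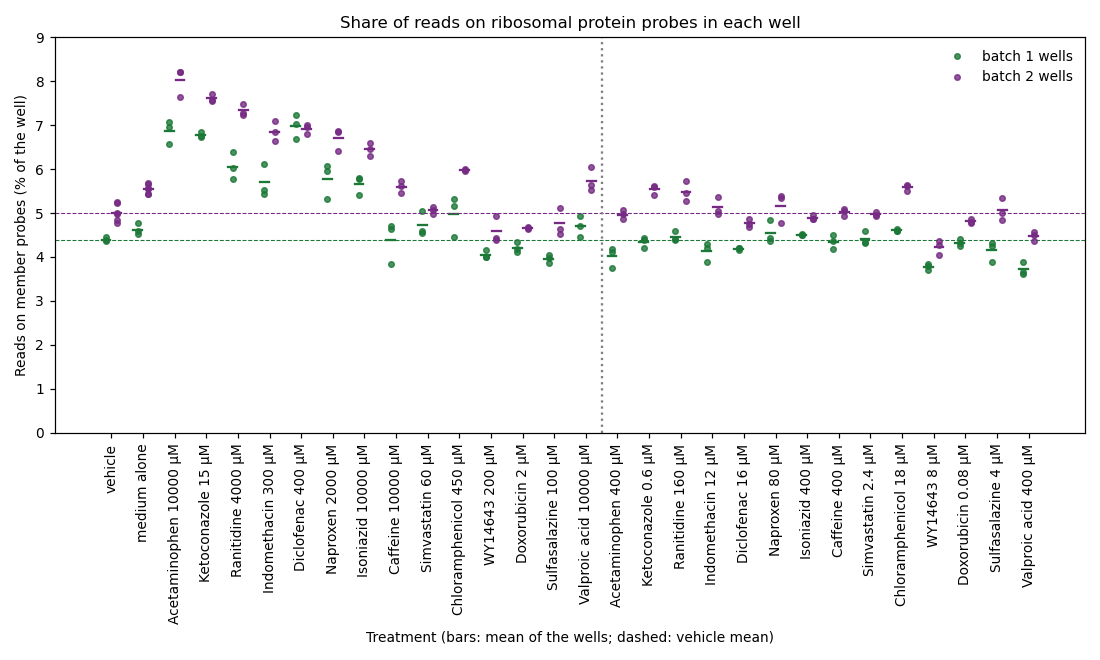
Percent of all WT reads on the 46 ribosomal protein probes, 1 point per well, for vehicle, medium alone and each treatment, with batch 1 and batch 2 in separate colours. Acetaminophen, ketoconazole, ranitidine, indomethacin, diclofenac, naproxen and isoniazid at the high concentration lie above the vehicle wells of the same batch, and 8 µM WY14643 lies below them in both batches.

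Each probe was then tested against vehicle in 1 edgeR fit of all WT wells with batch as a term, and a member is called higher or lower where its adjusted p over all 10689 probes was under 0.05. Over the 14 high concentrations, 328 of 644 pairs of member and treatment were called higher and 32 were called lower, against 25.4% and 25.2% of all pairs of probe and treatment. At the low concentrations 20 of 644 pairs were called higher and 15 lower, against 5.05% and 4.17%. Of the 46 members, 18 were called higher with 8 or more of the 14, against 11.3% of all probes. The median log2 fold change (L2FC) of the members was above 0 in both batches, each fitted by itself, for 11 of the 14 high concentrations. Under scaling by total count alone, which moved the median L2FC of all probes by between -0.41 and 0.27 and by over 0.1 in 10 of 29 comparisons, the counts at the high concentrations were 322 higher and 57 lower, against 23.5% and 28.2% of all pairs. An L2FC here is therefore relative to the bulk of the probes in the same wells.

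**Figure D2:**
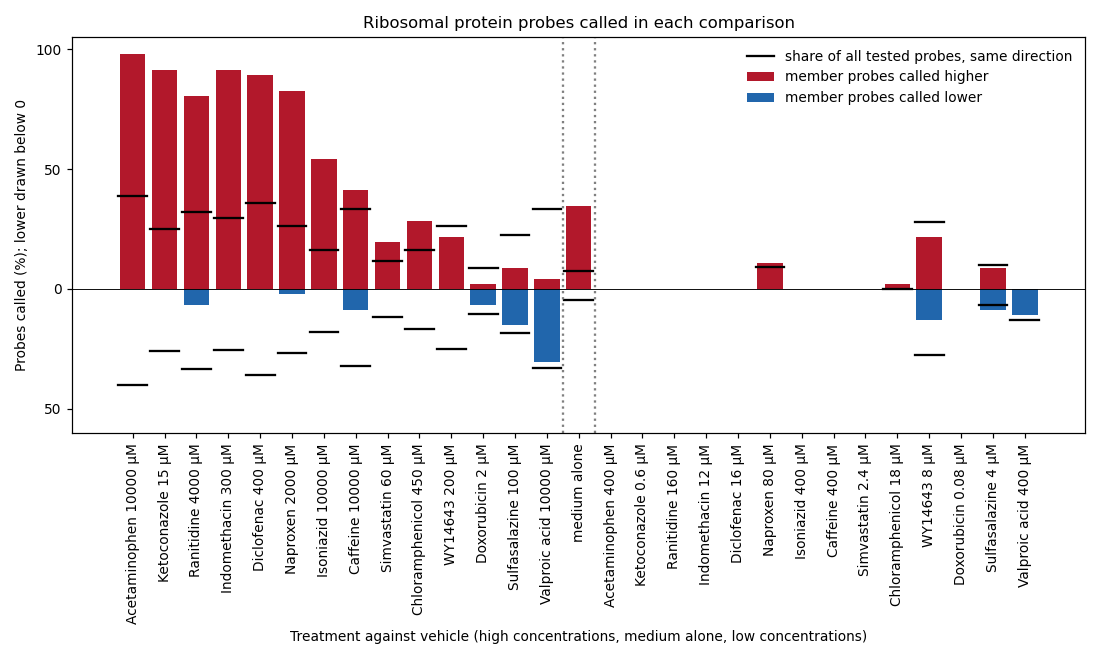
Percent of the 46 member probes called higher (upwards) or lower (downwards) against vehicle in each comparison, with black lines for the percent of all 10689 probes called in that direction, drawn for the high concentrations, medium and every count above 0. With acetaminophen, 45 of 46 members were higher against 38.7% of all probes, and with valproic acid at its high concentration 14 were lower against 32.9%, a direction of the median that turns under total count scaling.

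Acetaminophen at 10000 µM was followed by the broadest rise. Of the 46 members, 45 were called higher, against 38.7% of all probes, and the exception was Rps18. The median L2FC was 1.01 (0.93 in batch 1 and 1.03 in batch 2), or 2.01-fold, while the median of all probes was -0.02. Large and small subunit probes had medians of 1.01 and 1.05. In 41 members the call was made in each batch by itself, against 29.7% of all probes. In 34 the acetaminophen wells lay above the vehicle wells in both batches without overlap, which held for 25.7% of all probes. With total count scaling 40 members were called higher and 1 lower, against 26.2% and 53.6% of all probes, at a median of 0.59 beside -0.42 over all probes. At 400 µM no member passed the test in edgeR, with 2 at an unadjusted p under 0.05 and 0 by DESeq2, and 1.19% of all probes passed in either direction. The direct comparison of the high with the low concentration called the same number of 45 members higher, against 36.5% of all probes.

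Ketoconazole at 15 µM followed with 42 members higher against 25.1% of all probes, at a median L2FC of 0.70 (0.70 and 0.73 in the batches), and 37 members lay above vehicle in both batches without overlap, against 13.0% of all probes. The low concentration of 0.6 µM called none in edgeR, with 13 at an unadjusted p under 0.05 and 1 by DESeq2, against 1.75% of all probes in either direction, while edgeR on batch 2 alone called 4 higher and on batch 1 alone 0. High against low concentration called 41 higher against 20.0% of all probes. Indomethacin at 300 µM also called 42 higher, against 29.6% of all probes, at a median of 0.59 (0.54 and 0.53), and 25 lay above vehicle in both batches, against 13.8%. With 12 µM indomethacin none was called in edgeR, with 5 at an unadjusted p under 0.05 and 0 by DESeq2, against 5.59% in either direction, and the high against the low concentration called 42 higher against 22.1%. Diclofenac at 400 µM called 41 higher against 35.9% of all probes, at a median of 0.46 (0.50 and 0.37). At 16 µM diclofenac called none in edgeR, with 1 at an unadjusted p under 0.05 and 0 by DESeq2, against 0.225% in either direction, and high against low called 36 higher against 33.9%.

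Ranitidine at 4000 µM called 37 members higher and 3 lower, against 32.3% of all probes higher and 33.5% lower. Its median L2FC was 0.68 (0.58 and 0.69), with 0.76 over the large and 0.48 over the small subunit probes. The 3 lower members, Rps3a, Rps13 and Rps27, were all small subunit probes. Batch 1 alone called 3 members lower and batch 2 alone 0, and with the wells of each rat summed 2 were lower. At 160 µM ranitidine called none in edgeR, with 9 at an unadjusted p under 0.05 and 0 by DESeq2, against 0.0655% in either direction. High against low called 35 higher and 2 lower, against 28.3% and 28.7% of all probes. Naproxen at 2000 µM called 38 higher and 1 lower (1 probe of Rpl3), against 26.4% and 26.6% of all probes, at a median of 0.39 (0.27 and 0.48). The count of higher members was carried more by batch 2, in which 34 were called by themselves, than by batch 1, in which 15 were. With the wells of each rat summed it was 23, and the lower call of Rpl3 was lost (adjusted p = 0.0836 by edgeR). At 80 µM naproxen called 5 higher against 9.19%, of which none passed with the wells of each rat summed, and under total count scaling 1 member was called (against 5.60%). High against low called 18 higher and 2 lower against 21.9% and 24.5% (33 and 1 under total count scaling, against 29.6% and 18.8%, 9 and 0 with the wells of each rat summed, and 5 and 2 in batch 1 alone). Isoniazid at 10000 µM called 25 higher against 16.1% of all probes, at a median of 0.29 (0.30 and 0.23), and 11 with the wells of each rat summed. Isoniazid at 400 µM called none in edgeR, also at an unadjusted p under 0.05 and by DESeq2 (0 and 0), against 0.0187% in either direction, and high against low called 16 higher against 13.8% (26 under total count scaling, against 17.9%, and 9 in batch 1 alone).

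In 5 of these treatments edgeR called 0 of the 46 members lower, with 0 at an unadjusted p under 0.05 and 0 by DESeq2. The share of all probes called lower was 40.1% with acetaminophen, 25.8% with ketoconazole, 25.6% with indomethacin, 35.7% with diclofenac and 18.0% with isoniazid.

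**Figure D3:**
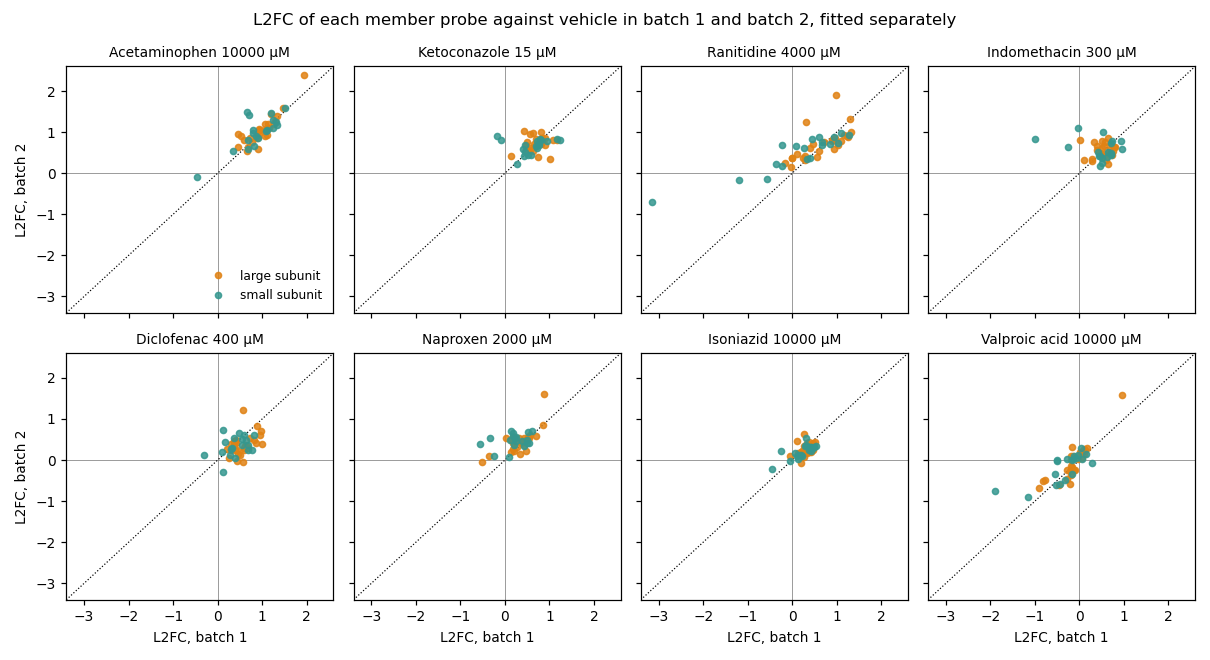
L2FC of each of the 46 members in batch 1 (horizontal axis) and batch 2 (vertical axis), each batch fitted by itself, for the 7 high concentrations with the highest medians and for valproic acid at 10000 µM. With acetaminophen most points lie near 1 in both batches, with medians of 0.93 and 1.03, whereas with valproic acid they lie on both sides of 0, with medians of -0.17 and -0.02.

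The remaining high concentrations had member counts nearer to or below the share of all probes. Caffeine at 10000 µM called 19 higher and 4 lower, against 33.5% and 32.3% of all probes, so the share of higher members was close to the background while that of lower members was below it. With the wells of each rat summed, caffeine called 12 higher and 2 lower. Without replicate 3 of the treatments it also called 12 higher, and under total count scaling 11 higher and 6 lower (against 27.5% and 36.4%). Caffeine at 400 µM called none in edgeR, with 0 at an unadjusted p under 0.05 and 0 by DESeq2, against 0.112% in either direction, and high against low called 14 higher and 4 lower against 29.8% and 31.0% (7 and 7 under total count scaling, against 24.9% and 35.1%). Chloramphenicol at 450 µM called 13 higher against 16.4% of all probes (0 by batch 1 alone and 8 by batch 2 alone with edgeR), and 1 with the wells of each rat summed, whereas total count scaling called 28 (against 28.7%). It called 0 lower (0 at an unadjusted p under 0.05, 0 by DESeq2) against 16.6%. At 18 µM chloramphenicol called 1 member, Rps27, against 0.0748% of all probes higher, and high against low called 3 higher and 3 lower against 10.3% and 14.1% (13 and 0 under total count scaling, against 25.7% and 7.90%). Simvastatin at 60 µM called 9 higher against 11.6%, none of them with the wells of each rat summed, 1 under total count scaling (against 7.82%) and 1 without replicate 1, without replicate 2 or without replicate 3 of the vehicle wells of batch 1. It called 0 lower (0 at an unadjusted p under 0.05, 0 by DESeq2) against 11.8%. At 2.4 µM simvastatin called none in edgeR, with 0 at an unadjusted p under 0.05 and 0 by DESeq2, against 2.24% in either direction, and high against low called 9 higher against 12.0% (2 under total count scaling, against 7.40%, 2 with the wells of each rat summed, and 1 in batch 2 alone).

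Doxorubicin at 2 µM called 1 higher (Rps19) and 3 lower (among them Rpl39 and Rpl35), against 8.64% and 10.3% of all probes, and none of the 4 with the wells of each rat summed. At 0.08 µM it called none in edgeR, with 3 at an unadjusted p under 0.05 and 0 by DESeq2, against 1.24% in either direction. High against low concentration of doxorubicin called none in edgeR, with 4 at an unadjusted p under 0.05 and 1 by DESeq2, against 10.1% in either direction. Sulfasalazine at 100 µM called 4 higher and 7 lower against 22.3% and 18.4% of all probes, and at 4 µM 4 higher and 4 lower against 9.98% and 6.68%. With the wells of each rat summed these counts were 1 and 1 at 100 µM and 0 and 0 at 4 µM. At 100 µM batch 1 alone called none with edgeR (0 and 0), whereas batch 2 alone called 6 higher and 16 lower. Under total count scaling they were 2 and 23 at 100 µM, against 13.9% and 30.2% of all probes, and 4 and 10 at 4 µM, against 6.23% and 9.88%, with medians of -0.19 and -0.11 in place of -0.05 and -0.07. The direct comparison of the sulfasalazine concentrations called none in edgeR, with 0 at an unadjusted p under 0.05 and 0 by DESeq2, against 12.3% in either direction.

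WY14643, an agonist of PPARα, gave calls in both directions. At 200 µM it called 10 higher against 26.1% of all probes and 0 lower (0 at an unadjusted p under 0.05, 0 by DESeq2) against 25.0%, with a median L2FC of 0.05. Of the 10, 2 passed with the wells of each rat summed, and each batch alone called 3 higher (3 and 3). Under total count scaling the median was -0.18 beside -0.24 over all probes, and 0 members were called higher and 15 lower, against 14.9% and 42.1% of all probes. At 8 µM it called 10 higher and 6 lower against 28.1% and 27.6%, with a median of -0.07, and 3 higher and 5 lower with the wells of each rat summed. Under total count scaling it called 1 higher and 30 lower, against 15.4% and 47.3%, at a median of -0.36 beside -0.29 over all probes. Batch 1 alone called 2 higher and 1 lower (median 0.01) and batch 2 alone 3 higher and 18 lower (median -0.15), and no member passed the interaction of batch and treatment. High against low concentration of WY14643 called no member in edgeR, with 6 at an unadjusted p under 0.05 and 0 by DESeq2, against 5.33% in either direction. Among the 10 members higher at 8 µM were Rpl32, Rpl35, Rpl36, Rpl36a, Rpl38, Rps13, Rps19, Rps27 and Rps29, and the 6 lower ones were Rpl12, Rplp0, Rps12, Rps15, Rps18 and Rpsa.

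Valproic acid at its high concentration had, after TMM normalization, the largest number of members called lower among the 28 treatments. As a share of the members this was close to, and not above, the share of all probes called lower. At 10000 µM it called 2 higher and 14 lower, against 33.4% and 32.9% of all probes, at a median L2FC of -0.14 (-0.17 in batch 1 and -0.02 in batch 2) after TMM normalization. Under total count scaling the median was 0.13 beside 0.27 over all probes, and 17 members were called higher and 5 lower, against 47.7% and 22.0%. Both higher members were large subunit probes, Rpl31 and Rpl27. The lower ones were Rpl6, Rpl10, Rpl19, Rpl27a, Rpl35, Rpl36, Rpl36a, both probes of Rpl3, Rps4x, Rps18, Rps27, Rps29 and the weaker probe of Rps15a. At 400 µM it called 5 lower against 12.9% of all probes, none of them with the wells of each rat summed and 12 under total count scaling (against 15.2%). High against low concentration called 6 higher and 10 lower against 31.9% and 32.8%, at a median of 0.03. Under total count scaling this turned to 30 higher and 2 lower, against 48.0% and 21.7%, at a median of 0.35 that lay beside a median of 0.32 over all probes.

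Medium alone was compared with vehicle to give the part of the solvent. In medium 16 members were called higher against 7.67% of all probes, and 0 lower (0 at an unadjusted p under 0.05, 0 by DESeq2) against 4.60%, at a median L2FC of 0.20 (0.14 and 0.23). Batch 2 alone, with 6 medium wells, called 14 members and batch 1 alone, with 3, called 0 with edgeR. In 7 members the medium wells lay above the vehicle wells in both batches without overlap, against 3.12% of all probes. None of the 16 passed with the wells of each rat summed, 6 passed under total count scaling (against 4.54%) and 10 without replicate 3 of the vehicle wells of batch 1. Treatments were compared with vehicle and not with medium.

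**Figure D4:**
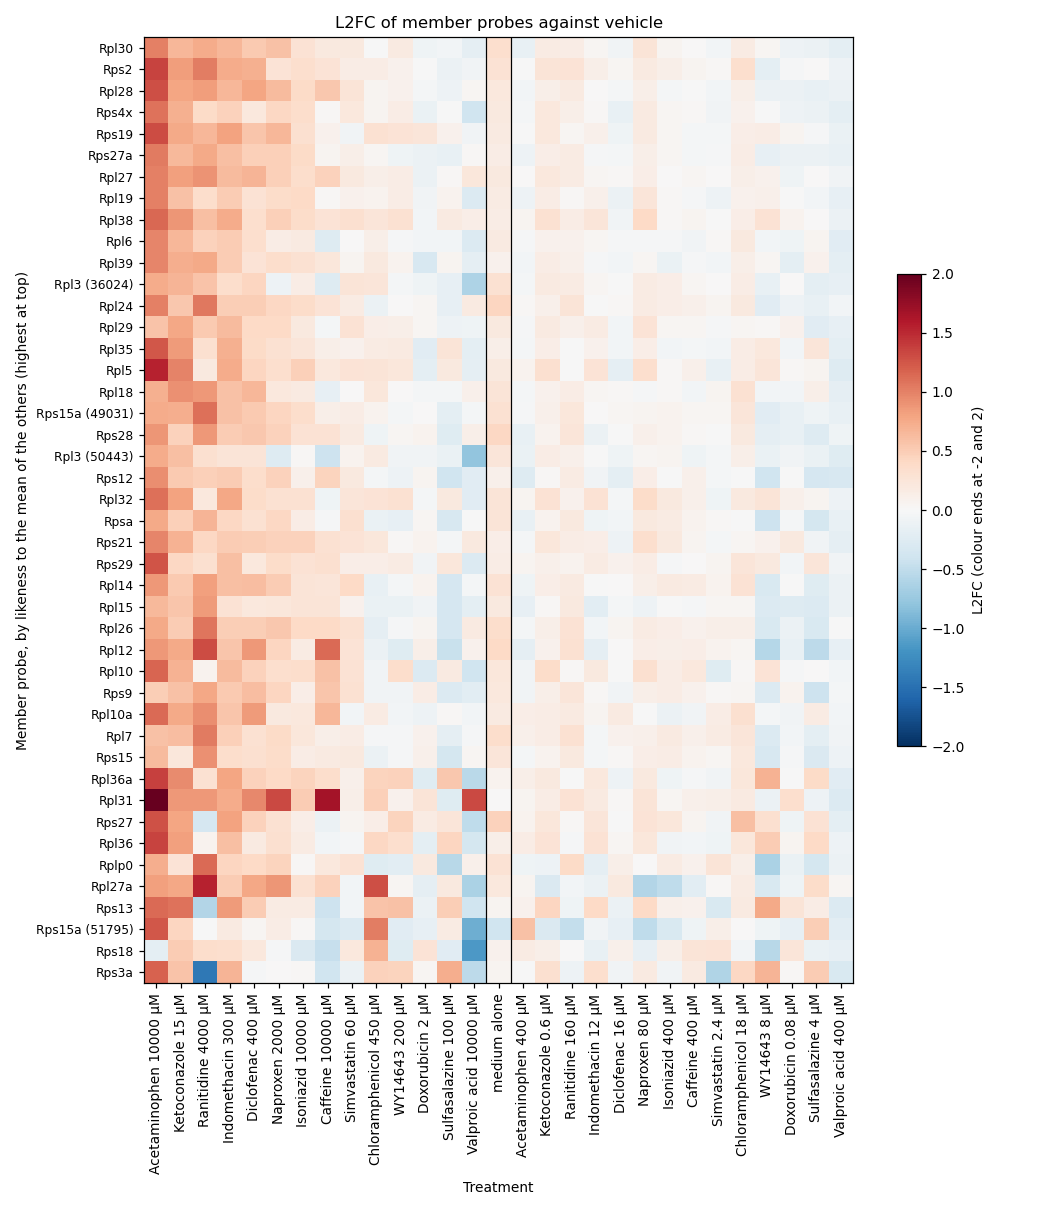
L2FC against vehicle of member probes (vertical axis, ordered by how closely each followed the mean of the others) in the 28 treatments and medium alone (horizontal axis), on a colour scale in log2 units. The columns of acetaminophen, ketoconazole, ranitidine and indomethacin at the high concentration are above 0 for most members, and the lowest placed members, such as Rps18 and Rps3a, depart from them.

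In what follows, CPM is the count of a probe per 1000000 reads of its library after TMM normalization. How closely a member followed the family was described by Pearson's r between its level, as log2(CPM + 1) centred on the vehicle mean of its batch, and the mean of the other members over all treated wells. These wells share plates, vehicle wells and library scaling, so no p is given. The r was highest for Rpl30 (0.93), Rps2 (0.92) and Rpl28 (0.91) and lowest for Rps3a (0.09), Rps18 (0.12) and 1 of the 2 Rps15a probes (0.14). The last 3 had mean counts of 36.4, 57.9 and 108, whereas Rpl30 had 37278 and Rpl28 had 7547, so counting noise is larger in them and its part in the low r was not tested. The other probe of Rps15a, with a mean count of 7475, had an r of 0.78. The pair of Rps15a probes had the same sign in 14 of 28 treatments, and the pair of Rpl3 probes, with mean counts of 1375 and 7552, in 24 of 28. In neither gene were the probes called in opposite directions. Levels are not compared between genes here, since reads per probe depend on how well each pair of oligos anneals and is ligated, and probes of genes with many near-identical pseudogene copies may read those copies too.

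Rpl30, a large subunit protein, stood for the shape of the family. Its vehicle wells held 4112, 4994 and 5079 CPM in batch 1 and 4393 to 5138 (median 4831) in batch 2, and its acetaminophen wells held 8082, 9659 and 9883 in batch 1 and 9038, 10080 and 11250 in batch 2. The groups did not overlap in either batch, and the L2FC was 1.01. With ranitidine Rpl30 held 6829, 7998 and 8736 CPM and 7704, 7788 and 8694 CPM, again above every vehicle well. Its wells with 10000 µM valproic acid, at 3817, 4157 and 4378 CPM and 3999, 4180 and 4894 CPM, overlapped with vehicle in both batches. Rps2, which lies at the entry of the messenger RNA channel, held 98.9, 106 and 107 CPM in the vehicle wells of batch 1 and 156 to 176 (median 166) in batch 2. With acetaminophen Rps2 rose to 232, 235 and 254 CPM in batch 1 and 386, 492 and 527 CPM in batch 2, without overlap, at an L2FC of 1.35. Rpl28, another protein of the large subunit, rose by an L2FC of 1.28 with acetaminophen, 0.84 with ranitidine and 0.79 with diclofenac.

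Of the stalk proteins, Rplp0 forms its base and Rpl12 lies beside it, and both were called higher with ranitidine and lower with 8 µM WY14643. Rpl12 held 47.3, 62.6 and 70.1 CPM in the vehicle wells of batch 1 and 74.6 to 92.6 (median 86.2) in batch 2. In ranitidine wells Rpl12 held 128, 144 and 176 CPM in batch 1 and 166, 227 and 239 in batch 2, above every vehicle well, and its L2FC was 1.31 ± 0.16 (SE, adjusted p = 2.01e-13 by edgeR). It held 82.2, 92.4 and 152 CPM in batch 1 and 185.8, 192 and 276 in batch 2 with caffeine, again without overlap, at an L2FC of 1.13 ± 0.16 (SE). With acetaminophen 1 well of batch 2 held 67.1 CPM of Rpl12, below every vehicle well, while the other wells of that batch held 195 and 205, and the L2FC over both batches was 0.87. At 8 µM WY14643 the Rpl12 wells held 45.9, 46.2 and 50.8 CPM and 40.4, 45.7 and 58.6 CPM, overlapping with vehicle in batch 1 and below it in batch 2, at an L2FC of -0.58 (adjusted p = 0.00183 by edgeR). Rplp0 had an L2FC of 1.14 with ranitidine and -0.63 with 8 µM WY14643 (-0.31 in batch 1 and -0.89 in batch 2). In sulfasalazine at 100 µM both were lower, Rplp0 by an L2FC of -0.55 and Rpl12 by -0.44, and neither call was kept with the wells of each rat summed.

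Rpl31, which lies at the exit of the peptide tunnel, had the largest rise of any member. Its vehicle wells held 32.1, 33.3 and 37.3 CPM in batch 1 and 25.8 to 37.3 (median 30.0) in batch 2. Acetaminophen wells held 121, 122 and 151 CPM of Rpl31 in batch 1 and 107, 180 and 208 in batch 2. No treated well overlapped with vehicle, and the L2FC was 2.24 ± 0.13 (SE, adjusted p = 4.38e-37 by edgeR), with 1.94 in batch 1 and 2.40 in batch 2. Caffeine wells held 61.7, 64.2 and 87.5 CPM in batch 1 and 115, 127 and 145 in batch 2, at an L2FC of 1.66 ± 0.13 (SE). The rise with caffeine was larger in batch 2 (2.07) than in batch 1 (1.05), and the interaction of batch and treatment had an adjusted p of 0.00147 by edgeR. With 10000 µM valproic acid, where the median member did not rise, Rpl31 held 63.6, 66.9 and 67.3 CPM and 89.3, 90.5 and 94.0 CPM, all above vehicle, at an L2FC of 1.32 (1.59 under total count scaling). It was also called higher with naproxen (1.31), diclofenac (0.97), ketoconazole (0.86), ranitidine (0.86), indomethacin (0.74), isoniazid (0.51) and chloramphenicol (0.47), in 10 of the 14 high concentrations in all. The calls with isoniazid and chloramphenicol were not kept with the wells of each rat summed.

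Among the other proteins near the catalytic core and tunnel, Rpl3, which reaches towards the peptidyl transferase center, was measured by 2 probes, and the values that follow are first those of the one with the higher mean count. This stronger probe held 899, 1008 and 1018 CPM in vehicle wells of batch 1 and 1124 to 1239 (median 1178) in batch 2. With 10000 µM valproic acid it held 484, 519 and 542 CPM and 670, 747 and 776 CPM, below every vehicle well, at an L2FC of -0.79, and the weaker Rpl3 probe had -0.62. With caffeine the stronger probe had an L2FC of -0.42 and the weaker -0.26, whereas with acetaminophen they rose by 0.74 and 0.75. Naproxen gave -0.25 for the stronger probe, with -0.52 in batch 1 and -0.04 in batch 2. Rpl10, which is added late to the large subunit and lies near its active center, rose with acetaminophen (1.17), ketoconazole (0.69), indomethacin (0.63) and caffeine (0.58) and was lower with valproic acid (-0.40 after TMM normalization). Rpl39, in the tunnel wall, rose by 0.98 with acetaminophen and 0.76 with ranitidine and was lower with 2 µM doxorubicin (-0.32).

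Rpl5, which binds the 5S ribosomal RNA, held 1139, 1164 and 1258 CPM in the vehicle wells of batch 1 and 1062 to 1290 (median 1143) in batch 2. Acetaminophen wells held 3155, 3215 and 3548 CPM of Rpl5 and 2989, 3577 and 3996 CPM, more than any vehicle well, at an L2FC of 1.54. Rpl5 was among the members that did not pass the test with ranitidine (0.20) or caffeine (0.21), and its L2FC was 1.00 with ketoconazole, 0.75 with indomethacin and 0.47 with isoniazid. Rpl11, its partner in the 5S particle, had no probe among the members. Rpl26, which has been tied to translation of p53, rose by 1.07 with ranitidine, 0.76 with acetaminophen and 0.53 with naproxen. Rpl38, known for its part in the translation of Hox messenger RNAs in the embryo, was called higher in 11 of the 14 high concentrations, from 1.15 with acetaminophen to 0.24 with chloramphenicol. It shared the number of 11 with Rpl36a, a large subunit protein near the exit site for transfer RNA.

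In the small subunit, Rpsa, which is also known as a laminin receptor precursor, rose by 0.75 with acetaminophen and 0.68 with ranitidine and was lower at 8 µM WY14643 (-0.42). Rps19, whose human gene is mutated in Diamond-Blackfan anemia, was called higher in 10 high concentrations, with 1.30 for acetaminophen and 0.81 for indomethacin. Rps4x rose by 1.08 with acetaminophen and was lower with valproic acid (-0.40 at 10000 µM and -0.19 at 400 µM). Total count scaling moved the median of all probes by 0.27 with 10000 µM valproic acid, and 5 in place of 14 members were then called lower. Rps27a, which is made as a fusion with ubiquitin, rose by 1.05 with acetaminophen and by 0.76 with ranitidine. Rps27, with a zinc finger, was higher with acetaminophen (1.27), indomethacin (0.80) and ketoconazole (0.79) but lower with ranitidine (-0.34) and valproic acid (-0.51).

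The interaction of batch and treatment was called by edgeR for 12 pairs of member and high concentration, against 4.13% of all such pairs of probe and treatment. Of the 12, 3 were with ranitidine (against 12.4% of all probes) and 3 with diclofenac (9.73%). With ranitidine Rpl31 (0.30 in batch 1 and 1.24 in batch 2), Rps19 (0.46 and 0.84) and Rps18 (-0.23 and 0.70) had the higher L2FC in batch 2. With diclofenac Rpl39 (0.56 and -0.05), Rpl18 (0.86 and 0.42) and Rpl6 (0.51 and 0.13) had it in batch 1. Rps3a and Rps13, which were lower with ranitidine, had the larger decrease in batch 1, without passing that test (adjusted p = 0.067 and 0.124 by edgeR). Rps3a, at the side of the small subunit where initiation factors bind, held 4.99, 5.05 and 7.69 CPM in the vehicle wells of batch 1 and 2.52 to 5.90 (median 4.31) in batch 2. With ranitidine it held 0.192, 0.555 and 1.11 CPM in batch 1 and 0.973, 2.33 and 4.67 in batch 2. The wells of batch 1 lay below vehicle and those of batch 2 overlapped with it, at an L2FC of -3.15 and -0.70. Over both batches the L2FC was -1.43 ± 0.39 (SE, adjusted p = 0.000672 by edgeR). Rps3a has few reads (mean count 36.4), so these values rest on small counts. Rps13, another small subunit protein, had -0.58 over both batches, with -1.20 in batch 1 and -0.16 in batch 2. For ketoconazole and acetaminophen, Rps13 rose by 1.09 and 1.13. Rps18, in the head of the small subunit, had few reads, at 6.38, 7.13 and 9.36 CPM in vehicle wells of batch 1 and 8.23 to 10.8 (median 8.64) in batch 2. Its wells with 10000 µM valproic acid held 1.59, 2.18 and 2.38 CPM and 4.63, 5.27 and 5.77 CPM, below every vehicle well, at an L2FC of -1.15 (adjusted p = 2.79e-09 by edgeR). With acetaminophen Rps18 had an L2FC of -0.19 that did not pass the test, and its wells overlapped with vehicle in both batches. Rpl27a, a further probe with a low mean count (32.8), rose by 1.53 with ranitidine and 1.28 with chloramphenicol. With ranitidine its wells held 7.04, 8.04 and 11.6 CPM in batch 1, above vehicle wells at 2.89, 4.01 and 6.78, and 10.6, 12.5 and 18.7 CPM in batch 2, above vehicle wells at 2.18 to 5.17.

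**Figure D5:**
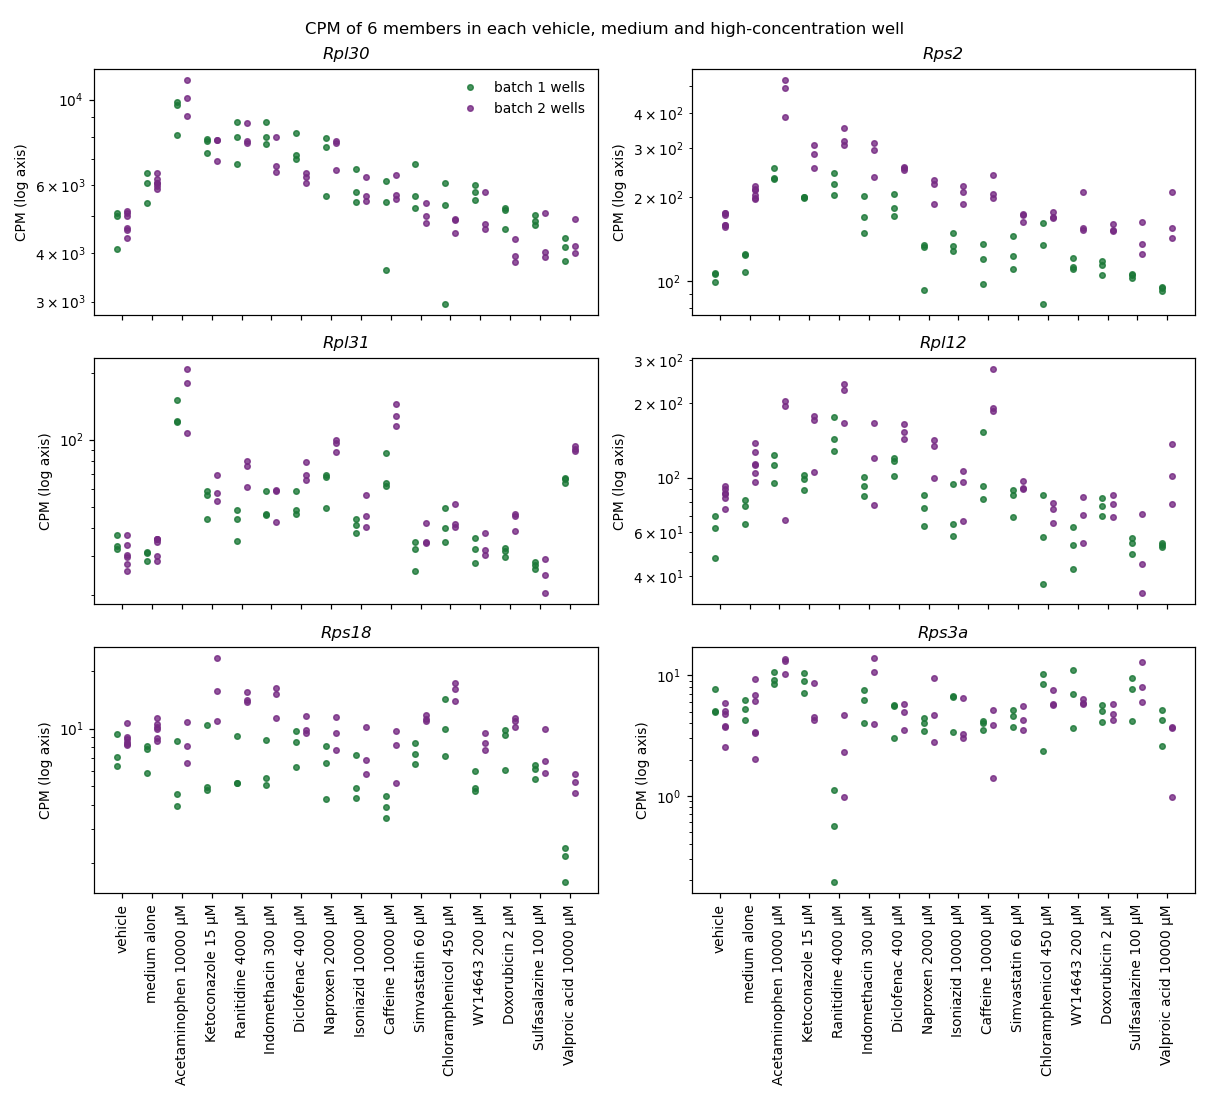
CPM per well on a log axis of Rpl30, Rps2, Rpl31, Rpl12, Rps18 and Rps3a with vehicle, medium alone and the 14 high concentrations, with batch 1 and batch 2 in separate colours. Rpl31 with acetaminophen lies at 107 to 208 CPM against at most 37.3 in vehicle wells, and Rps3a with ranitidine reaches 0.192 CPM in batch 1.

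The surrogate (ST) assay, run on lysate of the same wells with 2654 probes, held 8 probes of the family, among them Rpl19, Rpl6, Rplp0, Rps27a and Rpl35 by the same probe as in the WT assay, Rps19 by another probe, and Rps6 in the ST assay alone. All 8 were called higher with acetaminophen (against 38.7% of 1781 ST probes tested), ketoconazole (31.6%), diclofenac (40.0%) and ranitidine (36.6%). It called 7 higher with indomethacin (30.2%), isoniazid (24.4%) and naproxen (31.6%), 4 with caffeine (37.0%), 3 with 10000 µM valproic acid (36.1%) and 2 with chloramphenicol (22.7%). Lower calls were 2 with 400 µM valproic acid (21.1%) and 2 with 8 µM WY14643 (29.3%), Rps27a and Rps19. With 8 µM WY14643 the assays called Rps19 in opposite directions, by different probes in the same wells. The ST probe of Rps19 had an L2FC of -0.26 (adjusted p = 0.0179 by edgeR), whereas the WT probe had 0.15 (adjusted p = 0.0374 by edgeR), or -0.14 without a call under total count scaling. With 10000 µM valproic acid the ST assay called 0 of the 8 lower (against 33.8% of its probes), and Rpl6, Rpl19 and Rpl35, which the WT assay called lower there (-0.27, -0.28 and -0.20), had -0.14 for Rpl19 and 0.01 and 0.08 for Rpl6 and Rpl35 by the same probes, none called. The medians of the 8 were 1.20 with acetaminophen, 0.76 with ketoconazole, 0.72 with ranitidine, 0.71 with diclofenac and 0.05 with 10000 µM valproic acid. Both assays share the wells, so the ST values are a second measurement of these cultures and not a further animal.

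Other genes of translation were counted in lists chosen for their roles. Of 16 probes of translation factors and other TOP messenger RNAs, 15 were higher and 1 lower with acetaminophen (median L2FC 0.95), 15 higher with ketoconazole (0.72), 15 higher and 1 lower with diclofenac (0.63), 14 higher with indomethacin (0.66) and 13 higher and 1 lower with ranitidine (0.57), where 25.1 to 38.7% of all probes were higher. With acetaminophen these included Tpt1 (1.83), the elongation factor Eef1a1 (1.76) and the poly(A) binding protein Pabpc1 (1.69). With 10000 µM valproic acid 7 of them were higher and 3 lower, against 33.4% and 32.9% of all probes. Among the 3 lower were Eif4b (-0.68) and Eef1a1 (-0.54), and the 7 higher are not named here. The ribosomal proteins of mitochondria, which are encoded by other genes and build a separate ribosome, were counted from 79 probes. Of these, 13 were higher and 44 lower with acetaminophen (median -0.33), against 38.7% and 40.1% of all probes. With ketoconazole 52 were higher and 1 lower (0.38), against 25.1% and 25.8%, and with indomethacin 43 were higher and 2 lower (0.34), against 29.6% and 25.6%. WY14643 called 39 of them higher at 200 µM and 37 higher and 5 lower at 8 µM (medians 0.27 and 0.25), against 26.1% of all probes higher at 200 µM and 28.1% higher and 27.6% lower at 8 µM.

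Of 18 probes of ribosome biogenesis and RNA polymerase I, which makes and trims the ribosomal RNA, 17 were higher and 1 lower with diclofenac (median 1.27), against 35.9% and 35.7% of all probes, led by Rrp12 (2.76) and the nucleolar protein Ncl (1.87). With ketoconazole 14 were higher (0.56) against 25.1%, and with indomethacin 12 (0.52) against 29.6%. Chloramphenicol at 450 µM, where the median L2FC of the members was 0.13, had 13 of the 18 higher and 0 lower (0.62), against 16.4% and 16.6%. With acetaminophen 5 were higher and 8 lower (median -0.03), near the 38.7% and 40.1% of all probes, with Ncl at 1.71, the nucleolar protein Nop56 at 1.29 and the small subunit maturation factor Tsr1 at -1.19. With 400 µM valproic acid 12 of the 18 were lower (median -0.42) against 12.9%, and 8 were lower with 8 µM WY14643 (-0.27) against 27.6%. Of 15 probes of regulators, 6 were higher and 5 lower with acetaminophen, against 38.7% and 40.1% of all probes, 11 higher and 2 lower with diclofenac, against 35.9% and 35.7%, and 8 higher and 5 lower with 10000 µM valproic acid, against 33.4% and 32.9%. Among them Eif4ebp1, a repressor of cap-dependent translation that mTORC1 inactivates, fell by 2.41 on the log2 scale with acetaminophen, where Eif4ebp2 rose by 1.87 and Sesn2, an inhibitor of mTORC1 under stress, by 1.55. Trib3, a stress target of Atf4, rose by 2.66 with diclofenac and 2.21 with indomethacin, and Mdm2 rose by 1.60 with diclofenac. With 10000 µM valproic acid Myc, a transcription factor of ribosome genes, was lower (-1.85) and Mdm2 was higher (1.57). Of the like paralogs with a probe that passed the minimum, Rpl22l1 rose with ranitidine (1.01), ketoconazole (0.84) and diclofenac (0.83) and was lower with valproic acid (-0.78), and Rpl10l was lower with acetaminophen (-0.91), where Rpl10 rose.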

How the data were processed

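TempO-Seq was run on lysate of 186 wells of primary rat hepatocytes by WT and ST assay. The authors aligned reads to rn6 with STAR 2.5.3a and deposited, in 1 table per assay, raw counts of reads for each probe in each well. Every well was assigned its chemical, concentration, batch and plate from its label.

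These counts were fitted in edgeR 4.0.16 (R 4.3.3) by its quasi-likelihood test, after TMM normalization, with a filter of a mean count of at least 10 over the 186 wells, 1 group per treatment and batch as a term. Adjusted p-values are Benjamini-Hochberg values over all probes tested of the assay, and the threshold was 0.05. Read totals per library limit which low abundance probes could be tested, and counts of reads are not counts of molecules. Alternatives were DESeq2 1.42.0, RLE size factors, total count scaling, TMM factors without the members, no filter, an absolute L2FC of 1 or more, wells of a rat summed, each batch alone, vehicle wells of the same plate, probes of a symbol added, and wells left out in turn. Leaving out libraries under 3000000 reads was chosen after seeing the data.

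The members and the lists of related genes were chosen with earlier results of these data known. Members are named by role lists, as up to 2 called members with the largest and up to 2 with the smallest L2FC of the same sign in each batch for comparisons with at least 10 calls, as the 3 members most and the 3 least like the others, and for related lists as up to 3 called genes by absolute L2FC. Other members in the lists of calls, and the related genes of lower rank, were named after their values were seen. Some members enter the counts and medians but are not reported here by name. For a test of the fitting step, counts of 10689 probes were simulated from these means and library sizes, 200 of them changed 2-fold in 1 treatment, and edgeR recovered 183 with 9 false calls. With the members alone raised 1.5-fold, 33 of the 46 were called higher and 1 other probe was called. Counts were drawn with the spread that the fit assumes and without a difference between batches, so probes with another spread are not covered.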

Additional observations from a re-analysis of the deposited data

Results flagged for a closer look

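In 76 groups of 6 control wells of batch 2 (the CPM of 37 probes of members named by rule, and the share of reads on all members, each with vehicle and with medium), 4 had a well whose gap to its nearest neighbour, as a share of the group's range, exceeded Dixon's 95% critical value, and chance gives such a well in about 1 of 20 groups. Rps13 held 160.8 CPM in 1 vehicle well and 228.4 to 255.7 in the others. Rps18 held 10.75 CPM in 1 vehicle well against 8.227 to 9.059. The stronger probe of Rps15a held 1172 CPM in 1 vehicle well against 952.5 to 991.9. Rps27 held 85.16 CPM in 1 medium well against 68.67 to 73.3.

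Of 56 pairs of member and comparison named by rule and tested by edgeR for an interaction of batch and treatment, 3 had an adjusted p under 0.05. The differences given are from that fit, and the L2FC of each batch is from the batch fitted by itself, so they need not match exactly. The L2FC of Rpl31 with 10000 µM caffeine was larger in batch 2 (2.07) than in batch 1 (1.05), by 1.013 (adjusted p = 0.00147). The stronger probe of Rpl3 with 2000 µM naproxen was lower in batch 1 (-0.52) than in batch 2 (-0.04), a difference of 0.4859 (adjusted p = 0.025). Rps18 with 10000 µM valproic acid was likewise lower in batch 1 (-1.90) than in batch 2 (-0.76), a difference of 1.13 (adjusted p = 0.02695). Each batch is 1 rat, 1 culture and 1 sequencing run, so these cannot be told apart.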

How the results depend on the processing

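Member calls over the high concentrations were 328 higher and 32 lower, over the low concentrations 20 higher and 15 lower, in medium 16 higher, and in high against low 265 higher and 21 lower. In the order higher and lower at high, higher and lower at low, medium, and higher and lower in high against low, an absolute L2FC of 1 or more left 40, 2, 0, 0, 0, 36 and 1 calls. Total count scaling gave 57 lower at high, 7 higher and 53 lower at low and 6 in medium. Wells of a rat summed gave 15 lower at high, 3 higher and 5 lower at low, 0 in medium and 8 lower in high against low. Batch 1 alone gave 215 and 18 at high, 4 and 3 at low, 0 in medium and 12 lower in high against low, and batch 2 alone 10 higher at low and 12 lower in high against low. Without a filter on low counts, 9 were higher at low and 8 in medium. With vehicle wells of the same plate in batch 2, 24 were lower at low. The cause of these moves was not tested. Leaving out replicate 1, 2 or 3 of every treatment and medium, or 1 vehicle well, in turn, gave 292 to 326 and 19 to 33 at high, 7 to 23 and 8 to 29 at low, 9 to 17 in medium, and 227 to 257 and 11 to 15 in high against low (the last by treatment replicates alone). Without replicate 2 of every treatment and medium the counts were 19 lower at high, 7 higher and 8 lower at low, 9 in medium and 11 lower in high against low, and without replicate 1 they were 29 lower at low. Leaving out single vehicle wells gave 311 to 326 and 29 to 33 at high, 15 to 23 and 11 to 18 at low and 10 to 17 in medium. Over the other alternatives run, these counts stayed within 1.5 times. The median L2FC with 10000 µM valproic acid turned to 0.13 and that of Rpl35 with 200 µM WY14643 to -0.0600 under total count scaling, and Rps29 with 400 µM diclofenac turned to -0.0573 with vehicle wells of the same plate. Medians near 0 also changed sign under total count scaling, from 0.05 to -0.18 with 200 µM WY14643, from 0.04 to -0.05 with 12 µM indomethacin, from -0.01 to 0.01 with 2.4 µM simvastatin, and in high against low from -0.03 to 0.14 with chloramphenicol, from 0.02 to -0.08 with sulfasalazine and from 0.01 to -0.02 with doxorubicin. Of 56 named pairs of member and comparison, 53 kept direction and call with DESeq2, 45 under total count scaling, 33 with wells of a rat summed, 28 in batch 1 alone and 41 in batch 2 alone. No paired analysis was possible because the labels give no replicate numbers that would match single wells. Wells are matched by rat alone, through batch as a term of the fit and with wells of a rat summed.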
